A study of Homo sapiens with 2 samples.

Results

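The metallothioneins were examined in U87 cells, an established human glioblastoma line, together with MTF1, the transcription factor that switches their genes on. Members were all probe sets annotated to MT1E, MT1F, MT1G, MT1H, MT1M, MT1X, MT2A, MT3 or MTF1. There were 15 such probe sets among 54613 in all, 12 for the 8 metallothionein genes and 3 for MTF1. Each was annotated to 1 gene, and 0 were annotated to several genes. The data were 1 Affymetrix Human Genome U133 Plus 2.0 array from cells transfected with HOXD9 siRNA (siRNA-2) and 1 from cells transfected with control siRNA, a non-silencing duplex, each at 50 nM with a lipid reagent. RNA was taken on Day 2 from bulk cultures, so that fewer cells expressing a gene and less RNA per cell cannot be told apart. With 1 array for each siRNA there is no SD and no test between the conditions, and every ratio below compares these 2 arrays.

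Metallothioneins are small cysteine-rich proteins that bind zinc and copper, and also cadmium, through clusters of thiolate groups. They buffer free zinc, protect against toxic metals and scavenge oxidants, and MT3 is the form best known from brain, where it was described as a growth inhibitory factor. MTF1 senses a rise in free zinc, enters the nucleus and binds metal response elements, short motifs in the promoters of the MT1 and MT2A genes, and glucocorticoids also induce several of these genes. The 8 metallothionein genes lie side by side on chromosome 16. In the RefSeq order of GRCh38.p14 MT4 stands at one end, followed by MT3, MT2A, MT1E, MT1M, MT1A, MT1B, MT1F, MT1G, MT1H and MT1X, with the pseudogenes MT1L, MT1JP, MT1DP, MT1CP and MT1IP among them. MTF1 lies on chromosome 1.

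The promoters of the genes with a RefSeq entry are shown because MTF1 and its targets were read on the same arrays. Of the 9 genes 4 had an entry in the promoter table, MT2A, MT1H, MT1X and MTF1. The 250 bases before the annotated start of the 3 metallothionein genes (GRCh38.p14, all on the plus strand) are printed from 5′ to 3′, with each match to the core of the metal response element in capitals. The core was searched as TGCACNC and as TGCGCNC on both strands.
MT2A (chr16:56608334-56608583): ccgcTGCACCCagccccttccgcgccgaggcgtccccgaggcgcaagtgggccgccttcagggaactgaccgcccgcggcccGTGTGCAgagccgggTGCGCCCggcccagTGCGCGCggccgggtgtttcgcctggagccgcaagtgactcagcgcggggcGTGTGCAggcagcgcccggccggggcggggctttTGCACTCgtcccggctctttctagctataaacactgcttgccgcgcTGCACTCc
MT1H (chr16:56669564-56669813): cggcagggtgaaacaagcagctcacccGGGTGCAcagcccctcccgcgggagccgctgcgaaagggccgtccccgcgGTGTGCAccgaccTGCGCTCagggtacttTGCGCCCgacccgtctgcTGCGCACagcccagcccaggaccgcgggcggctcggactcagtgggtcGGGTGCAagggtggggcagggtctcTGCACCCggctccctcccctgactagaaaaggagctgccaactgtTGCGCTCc
MT1X (chr16:56682220-56682469): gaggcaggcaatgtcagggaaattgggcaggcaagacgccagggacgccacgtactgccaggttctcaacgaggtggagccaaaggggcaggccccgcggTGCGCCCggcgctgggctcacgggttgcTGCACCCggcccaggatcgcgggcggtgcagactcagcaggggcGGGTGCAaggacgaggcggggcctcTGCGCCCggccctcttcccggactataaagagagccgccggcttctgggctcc

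The MT1H window held 8 matches, the MT2A window 7 and the MT1X window 4. No matches overlapped. Of 35116 promoter windows of the same length, 24.8% held at least 1 match and 0.37% held at least 4. All 3 windows had a match about 50 bases before the start, from base -53 to -47 before the start of MT1H and MT1X and from -54 to -48 before that of MT2A. In MT1H and MT1X a further match on the opposite strand covered bases -78 to -72. A TATAAA motif began at base -29 of MT2A and -30 of MT1X, whereas the MT1H window had none. TATAAA was found in 6.8% of all windows. The MTF1 window had 0 matches to the core. A match is a stretch of letters and not evidence of binding.

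**Figure D1:**
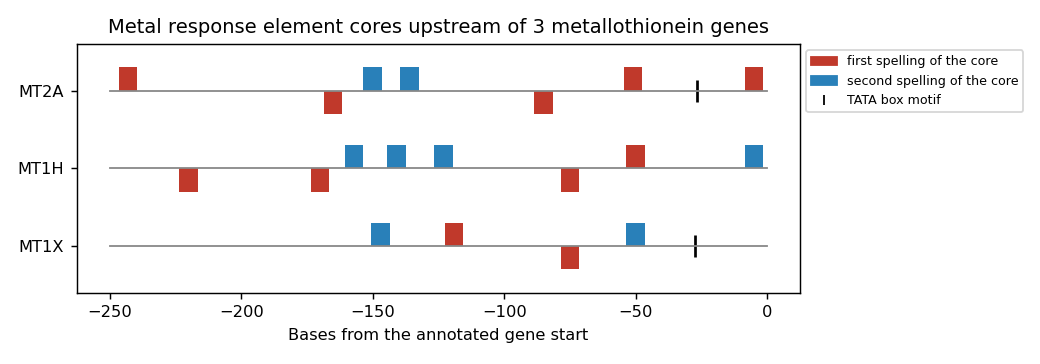
Matches to the metal response element core in the 250 bases before the annotated start of MT2A, MT1H and MT1X (x axis, bases from the start). Boxes above a line are on the gene's strand and boxes below it on the opposite strand, the 2 colors are the 2 spellings of the core, and black ticks mark a TATA box motif. MT1H has 8 matches, MT2A 7 and MT1X 4, and all 3 genes have one about 50 bases before the start.

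The 2 arrays differed in overall level. The median signal was 18.3 on the HOXD9 siRNA array and 22.5 on the control siRNA array, and centering each array on its median adds 0.30 to every log2 ratio. Signals at or under 18.4, the highest of 27 probe sets for Bacillus subtilis control transcripts (read on the HOXD9 siRNA array), were taken as background. A probe set was kept where its mean signal reached 19.8, the median of all. HOXD9 itself was read by 2 dim probe sets, at 5.58 and 11.4 on the HOXD9 siRNA array and 19.7 and 9.33 on the control siRNA array. Only the 19.7 exceeded the background, barely, so that the reading of that probe set was at least 1.07-fold lower. After centering the bound was under 1. These readings are too dim to show whether HOXD9 was lowered. The paper assessed the reduction of HOXD9 by qRT-PCR 2 days after transfection. Of the markers of glioma or neural lineage, VIM, NES and CD44 passed the filter, whereas GFAP, S100B, SOX2 and OLIG2 did not. CDKN2A and MTAP, 9p21 genes deleted in U87, had 9 probe sets, of which 1 was kept. It was a CDKN2A probe set (209644_x_at) that read 19.5 with HOXD9 siRNA and 26.9 with control siRNA. A signal just above the background is thus no proof of expression. In the list for leukocytes, endothelium, oligodendrocytes and neurons, the 5 PTPRC and 4 AIF1 probe sets were within the background on both arrays. MBP had no kept probe set, and PECAM1 and SYT1 each had 1 kept probe set, with log2 ratios of -0.11 and -1.60.

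Of the 12 metallothionein probe sets 10 were kept, covering 7 of the 8 genes, and 0 of the 10 differed by more than 2-fold between HOXD9 siRNA- and control siRNA-transfected cells. Of all 27307 kept probe sets 7.30% did, 6.69% lower and 0.615% higher. The log2 ratios of the 10 (HOXD9 siRNA over control siRNA) ranged from -0.36 to 0.02 with a median of -0.09, against a median of -0.28 over all kept probe sets. After centering, 2.94% of all kept probe sets were past 2-fold lower and 1.51% past it higher, 4.45% together, and the metallothioneins still 0 of 10. The metallothionein median was then 0.21 and that of all kept probe sets 0.02, and the sign of the metallothionein median was likewise positive after quantile normalization (0.08) and after removal of a loess trend (0.10). The direction of the family therefore depends on the scaling. Centering also put most bright probe sets above 0, as given below. Replicate error could not be measured. Between kept probe sets of one gene, log2 ratios had a pooled SD of 0.41 over 6081 genes, or 0.25 in the brightest of 3 equal groups by signal. This SD comes from the same 2 arrays and holds no variation between cultures, transfections or repeated arrays. Deviations were taken from the mean of all kept probe sets of a gene, whatever their group. The SD of the 10 metallothionein log2 ratios was 0.13, and ratios of bright probe sets were narrow in general, as given below.

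MT2A, the most widely expressed metallothionein of human tissues, had 1 probe set (212185_x_at). Its signal was 10864 with HOXD9 siRNA and 10922 with control siRNA, a log2 ratio of -0.01. These signals were close to the top of the arrays, on which the highest values were 13175 with HOXD9 siRNA and 14347 with control siRNA. Whether so high a signal still follows the amount of RNA was not tested. MT1X, an inducible MT1 form, had a probe set (208581_x_at) that read 8726 with HOXD9 siRNA and 8623 with control siRNA, a log2 ratio of 0.02. MT2A and this MT1X probe set thus gave nearly the same signal on both arrays.

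MT1H, another MT1 isoform, gave signals of 5140 with HOXD9 siRNA and 5189 with control siRNA on its only probe set (206461_x_at), a log2 ratio of -0.01. The brighter MT1E probe set (212859_x_at) read 5560 with HOXD9 siRNA and 5532 with control siRNA, a log2 ratio of 0.01. The other MT1E probe set (216336_x_at), for which the annotation gives no accession, read 4626 with HOXD9 siRNA and 4991 with control siRNA, or -0.11. The ratios of MT2A, MT1H and the brighter probe sets of MT1X and MT1E lay within 0.02 of 0 in the deposited signals. After centering these 4 ratios ranged from 0.29 to 0.32.

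MT1F had 2 probe sets. The brighter (217165_x_at) read 3212 with HOXD9 siRNA and 3563 with control siRNA, a log2 ratio of -0.15, and the other (213629_x_at) 2134 with HOXD9 siRNA and 2228 with control siRNA, or -0.06. MT1M, whose probe set (217546_at) is the only kept one of the family that does not end in _x_at, read 160 with HOXD9 siRNA and 182 with control siRNA, a log2 ratio of -0.19. Both genes were slightly lower with HOXD9 siRNA in the deposited signals and slightly higher once the arrays were centered, at 0.15 and 0.24 for MT1F and 0.11 for MT1M.

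The lowest ratio of the family was that of MT1G. Its kept probe set (204745_x_at) read 1613 with HOXD9 siRNA and 2064 with control siRNA, a log2 ratio of -0.36, which was the only one of the 10 below the median of all kept probe sets. It stayed below 0 after centering (-0.06), quantile normalization (-0.16) and loess (-0.16). An MT1X probe set (204326_x_at) was also below 0 after quantile normalization (-0.10) and loess (-0.11), but not after centering (0.03). The other MT1G probe set (210472_at) had signals of 6.0 with HOXD9 siRNA and 1.57 with control siRNA, both within the background, so that no fold is given for it.

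The probe set next to MT1G in ratio was annotated to MT1X (204326_x_at), with signals of 2690 for HOXD9 siRNA and 3253 for control siRNA and a log2 ratio of -0.27, just above the median of all kept probe sets. Its ratio was 0.29 below that of the other MT1X probe set, a larger gap than that between the probe sets of MT1E (0.12) or MT1F (0.09). The pooled SD of 0.25 for the brightest group measures deviation from a gene's mean and not a gap between 2 probe sets. Whether a gap of 0.29 is unusual was not tested. The accession that the annotation pairs with it, a non-coding transcript, belongs in RefSeq to MT1L, the pseudogene between MT2A and MT1E, and not to MT1X. Which transcripts this probe set reads was not tested, and without it the median of the other 9 kept probe sets was -0.06.

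MT3 was not detectable above background on either array. Its probe set (205970_at) read 5.97 with HOXD9 siRNA and 17.3 with control siRNA, both under 18.4, and no fold is given. The control siRNA signal did exceed 11.4, the highest of the control transcripts on its own array. MT4, the form of stratified epithelia, is no member of the list and read 1.88 with HOXD9 siRNA and 8.17 with control siRNA, also within the background.

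**Figure D2:**
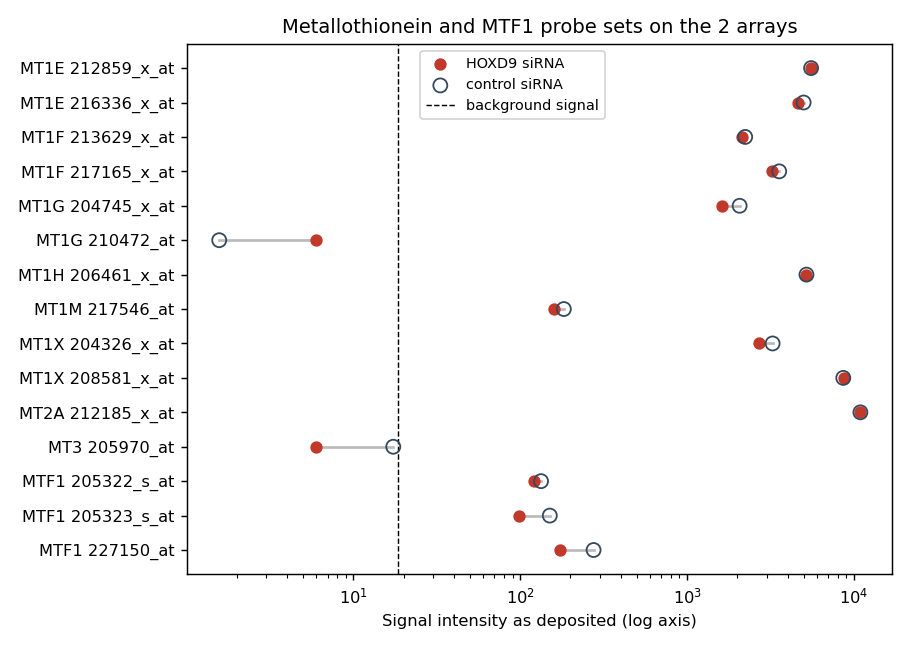
Signal of each metallothionein and MTF1 probe set (y axis) as deposited (x axis, log scale), with filled red points for HOXD9 siRNA, open circles for control siRNA and a dashed line at the background of 18.4. In the 10 kept metallothionein probe sets the 2 points lie close together or overlap, whereas the second MT1G probe set and MT3 lie left of the background line.

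Probe sets ending in _x_at hold probes that can bind more than one transcript, and 9 of the 10 kept metallothionein probe sets are of this kind. Since the MT1 genes are near copies of each other, a change of one gene could be read by the probe sets of several, and the values of single MT1 genes are uncertain for that reason. How far they read each other was not tested. Beside the members, MT1HL1, an MT1H-like gene on chromosome 1, was read by a bright probe set of the same kind (211456_x_at). It gave 5381 with HOXD9 siRNA and 8264 with control siRNA, a log2 ratio of -0.62, or -0.32 after centering. Its log2 ratio was thus lower than that of each of the 10 kept metallothionein probe sets. MT1HL1 was looked at after its value was seen.

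The 9 metallothionein probe sets other than that of MT1M were among the 1125 probe sets whose mean signal reached 1839, a set formed after the values were seen. In this bright set ratios were narrow. Its median log2 ratio was -0.14, 5% lay under -0.44 and 5% over 0.06, and only 0.267% of the set differed by more than 2-fold. The median of the 9 metallothionein probe sets was -0.06, and 6 of the 9 lay above the median of the set. In the deposited signals bright probe sets in general thus also lay near 0. After centering the median of the bright set was 0.16, with 85.7% of it at or above 0. Centered values above 0 were thus common at these signals and not particular to the metallothioneins. MT1HL1 stood among the 22 lowest of the 1125.

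**Figure D3:**
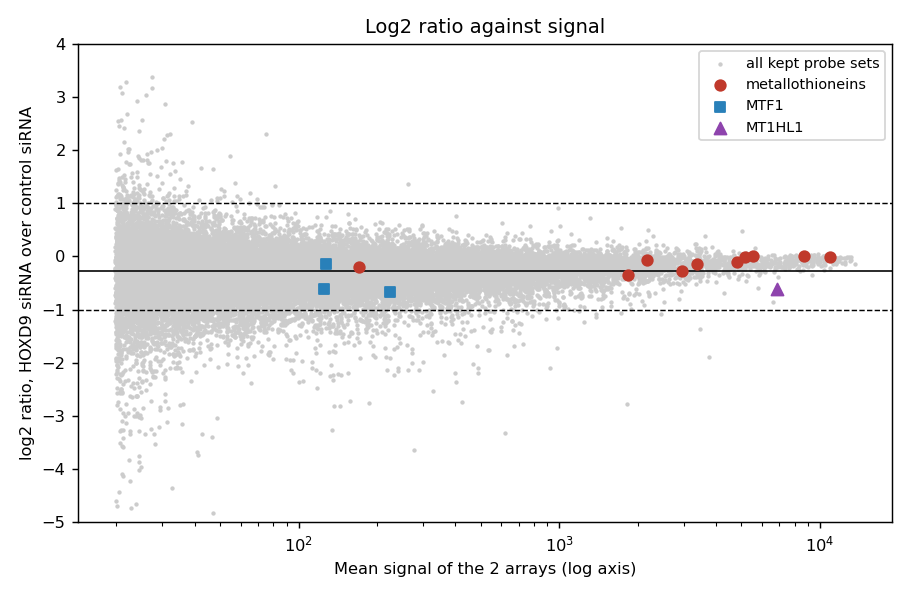
Log2 ratio of HOXD9 siRNA over control siRNA (y axis) against the mean signal of the 2 arrays (x axis, log scale) for all kept probe sets (gray), the metallothioneins (red), MTF1 (blue squares) and MT1HL1 (purple triangle). The solid line is the median of all kept probe sets, -0.28, dashed lines mark 2-fold, and 1 probe set lies outside the y axis. Most metallothioneins lie near 0 at the bright, narrow end of the cloud, and MT1HL1 lies below them.

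MTF1, the zinc sensor, was read by 3 kept probe sets, none past 2-fold. The brightest (227150_at) gave 173 with HOXD9 siRNA and 275 with control siRNA, a log2 ratio of -0.67. A further one (205323_s_at) gave 98.9 with HOXD9 siRNA and 150 with control siRNA, or -0.60. The last (205322_s_at) gave 121 with HOXD9 siRNA and 133.2 with control siRNA, or -0.14. All 3 were lower with HOXD9 siRNA in the deposited signals, the probe sets at -0.67 and -0.60 being below the median of all kept probe sets and the one at -0.14 above it. After centering the values were -0.37, -0.30 and 0.16, so that the probe sets then differed in sign, as they did after quantile normalization and loess. The 3 log2 ratios had an SD of 0.29. Pooled SDs between probe sets of one gene were 0.41 at all signals together, 0.33 in the middle signal group and 0.25 in the brightest.

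**Figure D4:**
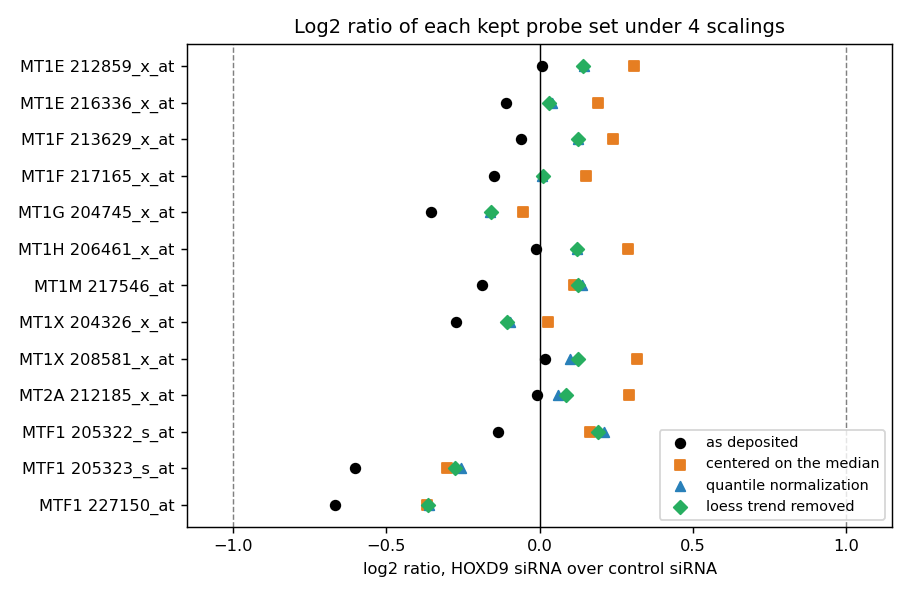
Log2 ratio (x axis, HOXD9 siRNA over control siRNA) of each kept metallothionein and MTF1 probe set (y axis) with the signals as deposited and under 3 other scalings, shown by color and shape; dashed lines mark 2-fold. No point reaches 2-fold. Centering moves every point by 0.30. The kept MT1G probe set and 2 MTF1 probe sets stay below 0 throughout.

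Zinc transporters were examined as the other main part of zinc handling, SLC30 members exporting zinc from the cytosol and SLC39 members importing it. All 24 genes of the list had a probe set, and 36 probe sets of 17 genes were kept. By their signals, 4 of the 36 were past 2-fold in the lower direction and 0 in the higher, beside 6.69% and 0.615% of all kept probe sets. With signals floored at the background the 4 became 3, since SLC39A3 then fell short. The median log2 ratio of the 36 was -0.37 (-0.07 after centering). SLC30A1, the plasma membrane zinc exporter and a target of MTF1 in mouse, had log2 ratios of -0.51, from signals of 924 with HOXD9 siRNA and 1311 with control siRNA, and of -0.30 on its dimmer probe set. SLC39A10, a zinc importer repressed through MTF1 in mouse, gave 280 with HOXD9 siRNA and 287 with control siRNA, a log2 ratio of -0.04. Neither gene passed 2-fold under any of the 4 scalings.

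The lowest zinc transporter was SLC30A4, which loads zinc into vesicles and, in mouse, milk. Its kept probe set read 14.7 with HOXD9 siRNA and 66.2 with control siRNA. Since 14.7 lay within the background, the reading of this probe set was at least 3.60-fold lower, or at least 2.92-fold after centering. The other SLC30A4 probe sets lay within the background on both arrays and were not kept. SLC39A6, a zinc importer of the LIV-1 family, was lower on all 4 kept probe sets, with log2 ratios from -1.12 to -0.82. Its brightest probe set read 1256 with HOXD9 siRNA and 2507 with control siRNA (-0.997), and the one past 2-fold read 495 with HOXD9 siRNA and 1078 with control siRNA (-1.12). After centering the SLC39A6 values ranged from -0.82 to -0.52, short of 2-fold.

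SLC30A6, a transporter of the Golgi, passed 2-fold on 1 of 3 kept probe sets, with 86.0 for HOXD9 siRNA and 211 for control siRNA, a log2 ratio of -1.29, but it gave -0.40 on the brightest and 0.31 on the dimmest. SLC39A3 had a dim probe set with signals of 14.7 for HOXD9 siRNA and 32.7 for control siRNA, at least 1.78-fold lower, and a brighter one at -0.11. The highest gene of the list by its brightest probe set was SLC39A4, the intestinal zinc importer, at 0.09. After centering only SLC30A4 remained past 2-fold among the 36 probe sets.

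Metallothioneins also bind copper. In the copper list, 16 probe sets of 10 genes were kept, and 1 of the 16 lay past 2-fold, on the lower side, beside 6.69% of all kept probe sets. The list had a median log2 ratio of -0.16 (0.14 after centering). The lower one was SLC31A2, a homolog of the copper importer SLC31A1, at 74.3 with HOXD9 siRNA and 201 with control siRNA, a log2 ratio of -1.44, or -1.14 after centering. SLC31A1 itself ranged from -0.15 to -0.03 over 3 probe sets. COMMD1, a regulator of copper export, was the highest of the list at 0.07.

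Genes that respond to glucocorticoids or to metal and oxidative stress, as metallothioneins do, also had 0 probe sets past 2-fold, beside 7.30% of all kept probe sets as deposited and 4.45% after centering. At these shares a list of this size would hold few such probe sets. In the glucocorticoid list 18 probe sets of 8 genes were kept, with a median log2 ratio of -0.08 (0.22 after centering). Of its 10 genes 9 had a single-gene probe set, PER1 having none. FKBP5, a co-chaperone of the glucocorticoid receptor, was lowest at -0.59 on its brightest probe set and ranged from -0.97 to -0.47 over 3. SGK1, a kinase induced by glucocorticoids, was highest at 0.28. In the stress list 27 probe sets of 11 genes were kept, with a median of -0.24 (0.06 after centering). Of its 13 genes 11 had a single-gene probe set, HSPA1A and HSPA1B having none. HMOX1, heme oxygenase, was the highest gene of that list, with 4112 for HOXD9 siRNA and 3152 for control siRNA, a log2 ratio of 0.38 (0.68 after centering). SLC7A11, the cystine transporter that supplies glutathione synthesis, was the lowest, with 213 for HOXD9 siRNA and 357 for control siRNA, or -0.75. GCLC, the catalytic subunit of glutamate cysteine ligase and another target of MTF1 in mouse, had log2 ratios of -0.52 and -0.18.

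**Figure D5:**
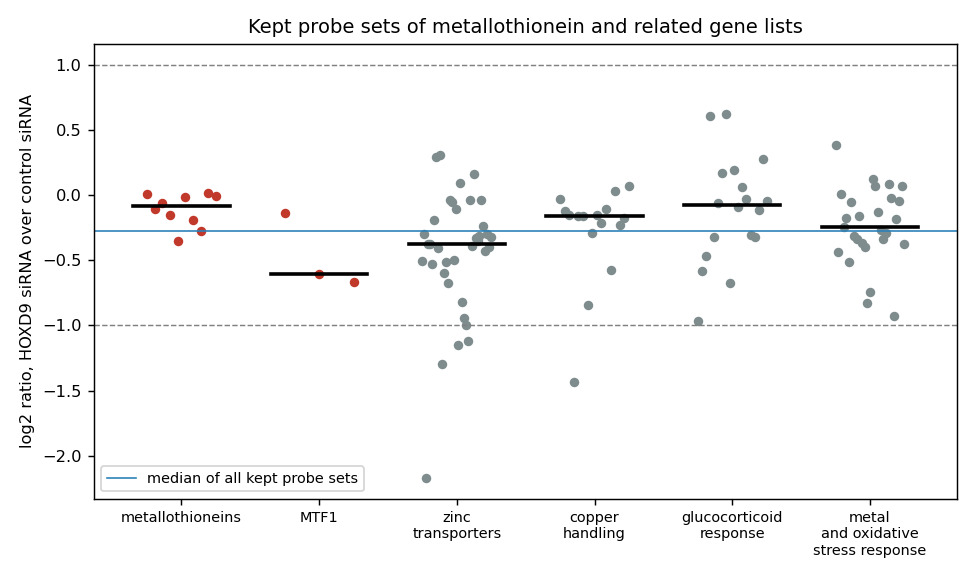
Log2 ratio (y axis, HOXD9 siRNA over control siRNA) of each kept probe set of the metallothioneins, MTF1 and 4 related gene lists (x axis). Black bars mark medians, the blue line the median of all kept probe sets (-0.28) and dashed lines 2-fold. Of the 10 metallothionein points 9 lie above the blue line, and the only points past 2-fold belong to zinc transporters and copper handling.

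The genes that flank the cluster on chromosome 16 were read from their brightest probe sets, 3 kept protein-coding genes on each side. Before MT4, BBS2 had a log2 ratio of 0.05, OGFOD1 -0.24 and NUDT21 -0.45. After MT1X, NUP93 stood at -0.21, HERPUD1, a gene of the endoplasmic reticulum stress response, at 0.30 and NLRC5 at -0.74. The 6 neighbors thus ranged more widely than the 10 metallothionein probe sets, in both directions and without any past 2-fold. Their mean signals, from 154 (NLRC5) to 1615 (HERPUD1), were below the 1839 that 9 of the 10 metallothionein probe sets reached. Ratios spread more at lower signal, with pooled SDs of 0.57 in the dimmest group, 0.33 in the middle and 0.25 in the brightest. The 6 neighbors all lay above 75.7, the 70th percentile of mean signals, so that the 0.57 may not apply to them. Whether the ranges differ beyond the spread at their signals was not tested. After centering the metallothioneins lay between -0.06 and 0.32, with NLRC5 at -0.44 and HERPUD1 at 0.60 outside that range.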

How the data were processed

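Total RNA of U87 cells transfected with HOXD9 siRNA-2 or control siRNA was hybridized to Affymetrix Human Genome U133 Plus 2.0 arrays. The deposited table gives linear intensities, with 1 value from each array for every probe set. GCOS is named in the submitters' processing notes, GeneSpring in the paper's methods. Algorithm settings and scaling target are not stated in the sources used. A difference in scaling shifts all log2 ratios alike.

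Log2 ratios of HOXD9 siRNA over control siRNA were taken from the deposited intensities without a pseudocount, leaving out 62 control probe sets. Genes came from the platform annotation, updated through Entrez numbers against RefSeq (GRCh38.p14), with 41037 matches. A single gene was listed for 41091 probe sets, several for 1801 and none for 11721. A change of more than 2-fold was the threshold, as in the paper's text. Named genes were all members, SLC30A1 and SLC39A10, and in each further list the genes past 2-fold and the lowest and highest by their brightest probe set. MT1HL1, MT4, GCLC, SLC31A1, the markers and the chromosomal neighbors were added. Members and lists were chosen with earlier results of these data known. Promoters came from the RefSeq table.

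Tried as alternatives were median centering, quantile normalization, a loess trend on signal (fraction 0.3), no filter, a filter at 75.7 (70th percentile), a floor at 18.4, the omission of _x_at and _s_at probe sets, and other summaries of a gene. On simulated data for these 54613 probe sets, with the same noise at every signal, all of 100 raised and 100 lowered 4-fold passed the threshold. That simulation checks the code and does not show what these arrays can detect, since their spread depends on signal. Python 3.11.15, numpy 2.4.6, pandas 2.3.3, statsmodels 0.14.6 and matplotlib 3.10.9 were used.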

Additional observations from a re-analysis of the deposited data

How the results depend on the processing

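The count of 0 kept metallothionein probe sets past 2-fold stayed at 0 under centering, quantile normalization, loess, the stricter filter, the floor at background and without probe sets ending in _x_at or _s_at. Without a signal filter it was 2, the MT1G and MT3 probe sets whose signals lay within the background on both arrays. The metallothionein median was 0.21 after centering and ranged from -0.19 to 0.10 under its other alternatives, the -0.19 being MT1M alone, the 1 probe set left without those ending in _x_at or _s_at. The omission of the MT1X probe set with the MT1L accession was chosen after the data were seen. The MTF1 median, -0.60 as deposited, was -0.30 after centering, -0.26 after quantile normalization and -0.28 after loess. The 4 zinc transporter probe sets past 2-fold became 1 under centering, quantile normalization and loess, 13 without a filter, 3 with signals floored at background, 2 with the stricter filter and 2 without probe sets ending in _x_at or _s_at. Without a filter the glucocorticoid list had 4 probe sets past 2-fold and the stress list 2. Over all kept probe sets, 1826 were lower and 168 higher as deposited, and 802 and 413 after centering. No probe set shared between a metallothionein and another gene was listed, so the planned medians of shared probe sets gave no value, and the count with shared probe sets included stayed at 0. No paired analysis was possible because each siRNA had 1 array. Signals at or near background, as for MT3, give no ratio.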
